A study of Mus musculus with 6 samples.

Results

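The comparison described here sets a single array of mouse proximal tubular cells given 3 stimuli and rapamycin against a single array of untreated cells, and asks which responses to the stimuli remained while rapamycin was present. These are 2 of the 6 arrays of the series, chosen by their labels. The cells are mProx24, an established line from the proximal tubule of C57B6 mice, the nephron segment that reabsorbs most of the filtered sugar, amino acids, phosphate and protein. The series has 1 one-colour Agilent array for each of 6 conditions, and every condition was grown in the same serum-containing medium. Control cells were kept at 20% O2 with no addition. Hypoxia cells were kept at 1% O2 for 12 h. Cells under triple stimuli were kept at 1% O2 for 12 h and then given 150 μM palmitate, a saturated fatty acid, carried on 0.15% bovine serum albumin, for 9 h. The third stimulus is taken to be high glucose, which the series uses on its own in another condition; its concentration is not given in the sources used here. The rapamycin cells had the triple stimuli and, in addition, 0.4 μg/ml rapamycin for the 12 h before palmitate. The difference from control therefore holds the effects of oxygen, palmitate, its albumin carrier, glucose and rapamycin together, and these cannot be told apart from these 2 arrays. The arrays with hypoxia alone and with triple stimuli alone are given beside it. Because palmitate followed the 12 h at 1% O2, time under treatment also differs between hypoxia alone and the 2 arrays with palmitate. It cannot be told apart from the added stimuli. No array had rapamycin without the stimuli, and the vehicle of rapamycin is not given in the sources used here.

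Rapamycin, bound to the protein FKBP12, inhibits mTORC1, the kinase complex at the lysosome that couples amino acid and growth factor signals to protein, lipid and ribosome synthesis. mTORC1 is known to raise translation of HIF-1α, the factor that turns on genes of glycolysis at low oxygen, and of ATF4, the factor that turns on amino acid supply. It also favours SREBP, the factor of sterol and fatty acid synthesis, and holds back TFEB, the factor of autophagy and lysosome genes. Palmitate and hypoxia are known stressors of the proximal tubule, which normally lives on fatty acid oxidation.

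With 1 array per condition there is no replicate, so no difference has an error between cultures and none was tested. A gene was called higher or lower when its signal differed at least 2-fold, a log2 difference of 1. Levels below are log2 signals relative to the 75th percentile of the same array, and a gene counts as measured when its spot was well above background on both arrays compared. Levels given together stand in the order control, hypoxia, triple stimuli, and triple stimuli with rapamycin. Between 40.3% and 43.8% of 59305 spots were well above background on those 4 arrays, and no spot was saturated. The only error that could be measured is technical: 79 probes printed 10 times each had a median SD of 0.067 (control) and 0.055 (rapamycin) log2 units. Different probes for 1 gene were less close, with a robust SD of 0.245 in their rapamycin minus control differences, and 87.7% of 5279 such pairs were within 0.5.

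The position of a spot moved with the differences. Of 33350 spots at background on the control array, 2.87% were at least 2-fold brighter and well above background on the rapamycin array. That share was 7.88% in the first 64 of 384 rows, between 2.22% and 2.82% in the next 3 bands of 64 rows, and 0.79% and 0.76% in the last 2. Genes measured on both arrays followed in part: 3.73% were called higher in the first band and 1.84% to 2.65% in the others. All 6 arrays shared 1 slide, with the 20% O2 arrays in 1 row of it and the 1% O2 arrays in the other, so that oxygen and the row of the slide cannot be told apart. For named genes the share of raised dim spots within 4 rows and columns is given where it is at least 10%, as a count or a range where several genes are named together; it was at least 10% for 7.81% of all measured genes. Whether position produced any single difference was not tested.

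**Figure D1:**
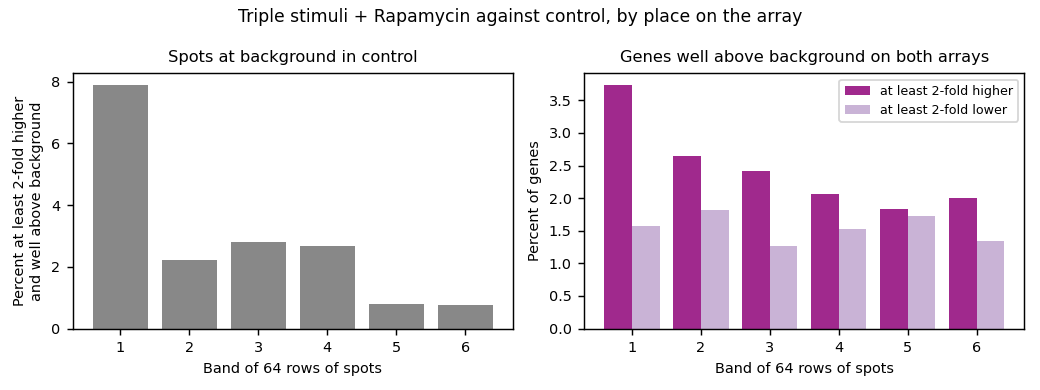
Place on the array, in 6 bands of 64 rows (x axis). Left, percent of spots at background in control that were at least 2-fold higher and well above background with triple stimuli and rapamycin; right, percent of measured genes called higher (dark) or lower (light). The first band stands apart on the left at 7.88% and is highest on the right at 3.73% for higher calls, while lower calls lie between 1.27% and 1.82% in all bands.

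Of 15891 genes measured on both arrays, 388 (2.44%) were at least 2-fold higher and 245 (1.54%) at least 2-fold lower with triple stimuli and rapamycin than in control. The median log2 difference over all of them was −0.05, and 78.4% lay within 0.5 of 0. Scaling each array by its median in place of the 75th percentile moved the all-gene median to −0.21 and turned the split: 61.3% of called genes were higher under the 75th percentile and 37.0% under the median. With genes well above background on only 1 of the arrays added, 71.8% of the called genes were higher, and with a 3-fold threshold 77.5% were.

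About as many genes passed the fold without rapamycin: 482 of 15503 (3.11%) were higher and 225 (1.45%) lower with triple stimuli alone, 4.56% in all, where rapamycin gave 3.98% in all. Hypoxia alone gave 393 higher (2.5%) and 45 lower (0.286%) of 15716. Over the 15312 genes with a signal on the control array and both palmitate arrays, triple stimuli alone gave 460 higher calls, and 250 of these genes (54.3%) were still at least 2-fold higher with rapamycin. Another 162 kept a log2 difference between 0.5 and 1, and 48 were below 0.5. With genes above background on at least 1 array added, 305 of 897 were still higher. The median log2 difference of the 460 was 1.33 without and 1.06 with rapamycin. The 250 genes made up 69.3% of the 361 called higher with rapamycin. Of 220 genes lower with triple stimuli alone, 118 (53.6%) stayed at least 2-fold lower, 85 lay between −1 and −0.5, and 17 above −0.5, with medians of −1.21 without and −1.03 with rapamycin. Those 118 were 50.6% of the 233 called lower with rapamycin. Both comparisons use the same control array, so a low or high spot there enters both. The 460 and the 220 genes were chosen by their values without rapamycin. A smaller median difference with rapamycin can follow from that choice alone, and whether it did was not tested. Set directly against triple stimuli, the rapamycin array had 58 of 15427 genes (0.376%) at least 2-fold higher and 88 (0.57%) lower, 0.946% in all. Of these, 33 and 41 lay in the first 64 rows. Without those rows 25 genes were higher and 47 lower.

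Among the gene lists, those of stress factors, hypoxia targets and immediate early genes had the highest medians against control, and cholesterol synthesis and oxidative phosphorylation the lowest.

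**Figure D2:**
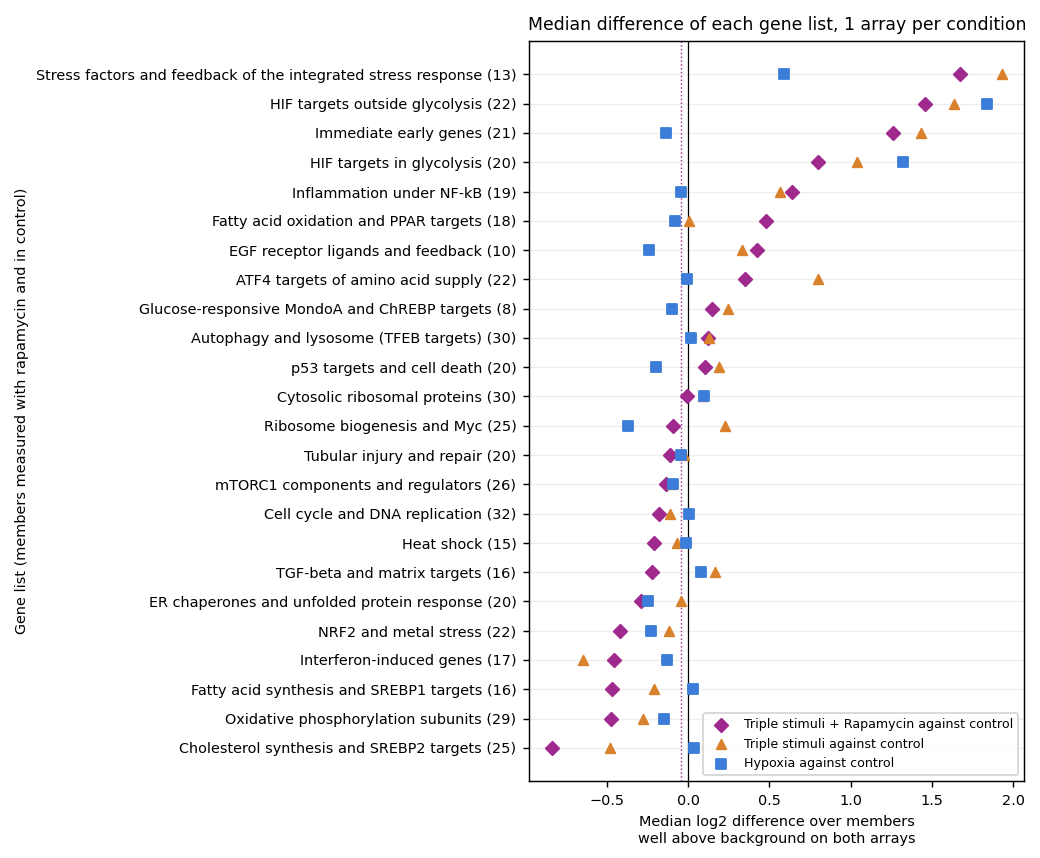
Median log2 difference from control (x axis) over the measured members of 24 gene lists (y axis, with the number of members) on 3 arrays: triple stimuli with rapamycin (diamonds), triple stimuli (triangles) and hypoxia (squares). The dotted line is the median of all genes with rapamycin, −0.05. Stress factors of the integrated stress response are highest at 1.67 and cholesterol synthesis lowest at −0.84 with rapamycin; no error bar is shown because each condition is 1 array.

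Genes of the hypoxia response remained high under rapamycin, at somewhat lower levels than without it. HIF binds a short core sequence, ACGTG or GCGTG, in its target promoters, and the targets supply glucose uptake, glycolysis, pH control and mitochondrial removal. The 250 bases before the start of 3 genes with large differences are printed for that core, which stands in capitals on either strand (CACGT and CACGC are its other-strand forms). They are RefSeq sequences of GRCm38.p6. Ak4 lies on the plus strand at chr4:101419039-101419288, Mgarp on the minus strand at chr3:51396548-51396797, and Ankrd37 on the minus strand at chr8:45999851-46000100.
Ak4: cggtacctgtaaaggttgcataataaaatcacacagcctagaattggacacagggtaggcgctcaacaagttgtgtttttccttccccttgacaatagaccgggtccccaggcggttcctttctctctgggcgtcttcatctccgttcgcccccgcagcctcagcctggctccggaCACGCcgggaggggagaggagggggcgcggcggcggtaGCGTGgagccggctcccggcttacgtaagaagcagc
Mgarp: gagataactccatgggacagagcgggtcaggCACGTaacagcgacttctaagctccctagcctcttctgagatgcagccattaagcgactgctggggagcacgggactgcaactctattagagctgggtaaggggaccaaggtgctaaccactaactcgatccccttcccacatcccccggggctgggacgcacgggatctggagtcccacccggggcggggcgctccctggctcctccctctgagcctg
Ankrd37: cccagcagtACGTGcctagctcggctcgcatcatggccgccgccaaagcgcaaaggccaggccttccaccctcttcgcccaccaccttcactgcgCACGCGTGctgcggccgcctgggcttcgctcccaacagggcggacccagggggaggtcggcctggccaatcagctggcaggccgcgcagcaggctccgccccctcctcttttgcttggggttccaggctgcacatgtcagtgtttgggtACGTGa
The core is common: 41.5% of 27025 genes with such a window hold it, and 62.0% of 9360 genes that were measured here. Of the glycolytic HIF targets with a window 17 of 20 held it, and of the other HIF targets 16 of 17; a match is a description of letters, not a binding site.

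Ak4, a mitochondrial adenylate kinase, had levels of −0.95, 3.64, 3.36 and 2.87, a log2 difference of 3.83 between rapamycin and control (14.2-fold). Mgarp, a mitochondrial transport protein, had −0.95, 3.47, 2.86 and 2.41, a log2 difference of 3.36 (10.3-fold). Ankrd37 had 1.03, 4.95, 4.33 and 3.79, a log2 difference of 2.75 (6.74-fold). In all 3 genes the control array was low, the hypoxia array highest and the rapamycin array the lowest of the 3 arrays at 1% O2. Ak4 lies in the first 64 rows, with none of the dim spots around it raised. Egln3, the oxygen-sensing hydroxylase that marks HIF for degradation, was not well above background in control (−3.72) and reached 0.72, 0.60 and −0.29 on the other arrays, at least 10.3-fold higher with rapamycin. Of the 22 measured HIF targets outside glycolysis 13 were called higher and none lower. Triple stimuli alone gave 17 higher calls and hypoxia alone 18. The median log2 difference was 1.46, against 1.64 with triple stimuli and 1.84 with hypoxia alone. Set directly against triple stimuli, the median difference with rapamycin was −0.48 over 23 members.

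Among the remaining members, Bnip3, which recruits the autophagy machinery to mitochondria, had a log2 difference of 2.31, and Bnip3l, its relative, 1.49, the same as without rapamycin. Vegfa, the angiogenic growth factor, differed by 1.69, and Ddit4, itself an inhibitor of mTORC1 (REDD1), by 1.72 with and 2.44 without rapamycin. Hilpda, a lipid droplet protein, went from a level of 5.08 with triple stimuli to 4.25 with rapamycin. Ero1a, the oxidase of disulphide formation, went from 1.86 to 0.75, 1 of 3 HIF targets more than 2-fold lower with rapamycin than with triple stimuli. Car12, a carbonic anhydrase, showed another pattern within that list: it was below control with rapamycin (−1.74 against −0.97) and above it with triple stimuli (−0.67). Tfrc, the transferrin receptor, likewise stood at 1.59 in control, 1.84 with triple stimuli and 0.82 with rapamycin.

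Glycolysis showed the same order at smaller size. Of 20 measured members 9 were called higher and none lower, beside 10 higher with triple stimuli and 13 with hypoxia. The median log2 difference was 0.80, against 1.04 with triple stimuli and 1.32 with hypoxia. Pdk1, the kinase that shuts pyruvate out of the mitochondrion, had levels of 0.21, 3.07, 2.43 and 2.25. Slc16a3, the lactate exporter, had 4.17, 6.64, 6.44 and 6.04, and Pfkp, a phosphofructokinase, had 1.36, 3.57, 3.67 and 3.22. Each of these probes kept most of its distance from control, but the other probe for Pfkp gave a rapamycin minus control difference of 0.27, against 1.86. Slc2a1, the glucose transporter GLUT1, had 4.0, 5.73, 5.66 and 5.01, and 33.3% of the dim spots around its probe were raised. Pfkfb3, which makes the activator of phosphofructokinase, was above control with hypoxia (2.54) and triple stimuli (1.29) and not with rapamycin (0.51 against 0.65 in control). The rapamycin array was below the triple stimuli array in 19 of 20 glycolytic members and in 20 of the 22 others measured on all 3 arrays. Over all 15427 genes 42.9% were above it.

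**Figure D3:**
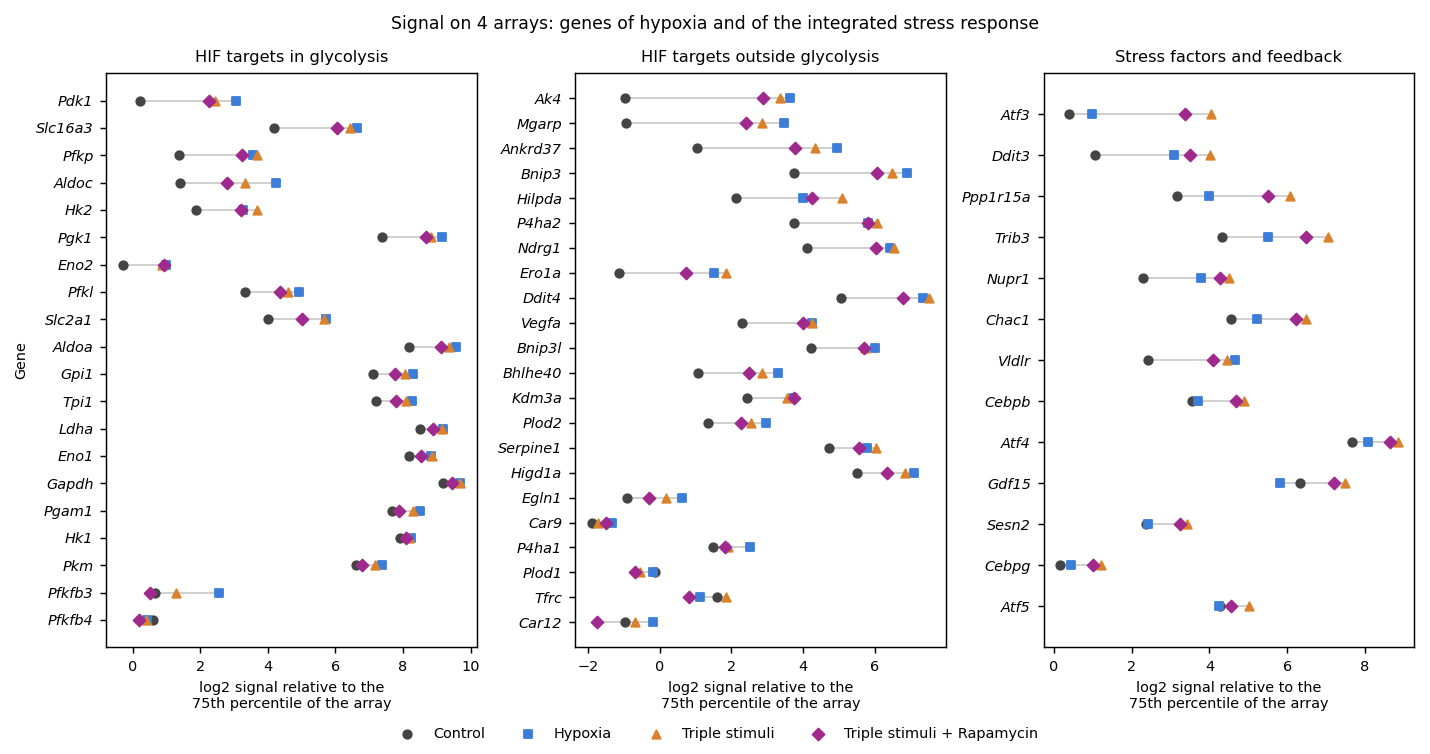
Level of each measured member (x axis, log2 signal relative to the 75th percentile of its array) on the control, hypoxia, triple stimuli, and triple stimuli with rapamycin arrays, for HIF targets in glycolysis (left), other HIF targets (middle) and stress factors (right), sorted by the difference between rapamycin and control. Diamonds lie right of the circles for most genes and mostly left of the triangles; all 13 stress factors are above control and below triple stimuli. Levels of different probes are not comparable.

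In the integrated stress response, 8 of 13 measured stress factors were at least 2-fold above control under rapamycin. All 13, and most amino acid genes, lay between control and the level with triple stimuli. ATF4 is translated when eIF2α is phosphorylated and binds the element TGATGNAA. The Atf3 window is shown because this gene had the largest difference of the list and carries that element, in capitals and on the other strand. It lies on the minus strand at chr1:191183334-191183583 (GRCm38.p6, RefSeq).
Atf3: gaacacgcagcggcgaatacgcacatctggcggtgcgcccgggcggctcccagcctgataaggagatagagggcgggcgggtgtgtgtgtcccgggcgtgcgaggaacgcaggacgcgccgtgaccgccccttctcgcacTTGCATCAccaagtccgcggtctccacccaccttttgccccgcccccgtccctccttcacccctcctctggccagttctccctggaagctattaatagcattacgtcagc
The element occurs in 3.9% of all windows and 2.4% of those of measured genes. It was found in 4 of 13 stress factors and 4 of 17 amino acid genes with a window, and all 4 stress factors that hold it were called higher.

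Of 13 measured stress factors 8 were at least 2-fold higher with rapamycin and none lower. Triple stimuli alone gave 12 higher calls and hypoxia alone 4. The median log2 difference was 1.67 with rapamycin, against 1.93 without it and 0.59 with hypoxia alone. Atf3, a repressor induced by many stresses, had levels of 0.39, 0.98, 4.05 and 3.38, a difference of 2.98 (7.92-fold). Ddit3 (CHOP), the factor of stress-induced death, had 1.06, 3.09, 4.01 and 3.49. Ppp1r15a (GADD34), which brings the phosphatase back to eIF2α, had 3.18, 3.98, 6.06 and 5.50. In these 3 genes the hypoxia array lay between control and the others, and rapamycin minus triple stimuli differences lay between −0.67 and −0.53. Trib3, a pseudokinase that inhibits AKT and ATF4, had a difference of 2.15, Nupr1 1.98, Chac1, a glutathione-degrading enzyme, 1.67, and Atf4 itself 0.97. All 13 were lower with rapamycin than with triple stimuli, with a median difference of −0.30, and none by 2-fold. Stc2, a secreted glycoprotein, was well above background on the rapamycin array alone, at least 2.41-fold above control, in the first 64 rows and beside 17.3% raised dim spots.

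Of 22 measured ATF4 targets of amino acid supply, 9 were called higher with triple stimuli and 4 with rapamycin, and the median log2 difference from control was 0.80 without and 0.35 with it. Hypoxia alone left the list at a median of −0.01. Aldh1l2, a mitochondrial folate enzyme, had levels of 0.19, 1.95, 2.64 and 1.63. Slc7a11, the cystine importer, had −2.88 in control, was not well above background with hypoxia (−3.19), and had −0.67 with triple stimuli and −1.40 with rapamycin. Slc3a2, the heavy chain of the amino acid exchangers, had 5.49, 5.84, 7.09 and 6.76. These 3 and Slc7a1 (difference 1.12), the arginine transporter, are the 4 called with rapamycin. The serine enzyme Psph was at 5.55 with triple stimuli and 4.66 with rapamycin, beside 4.61 in control, and Phgdh, the first enzyme of serine synthesis, was below control with rapamycin (6.33 against 6.70), beside 10.4% raised dim spots. Wars, the tryptophanyl-tRNA synthetase, went from 6.43 to 5.64, with 5.32 in control. In 21 of 22 members the rapamycin array was the lower of the pair, with a median difference of −0.42.

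Immediate early genes, switched on by growth factor and stress kinases without new protein synthesis, were high on both palmitate arrays. Of 21 measured members 16 were called higher and none lower, all 21 lay above control, and the median log2 difference was 1.26, against 1.43 without rapamycin and −0.14 with hypoxia alone. Junb had levels of −2.39, −1.07, 0.12 and 0.12, so the arrays with and without rapamycin were equal to 2 decimals. Jun had 3.23, 3.25, 5.29 and 5.10, and Dusp2, a phosphatase of MAP kinases, 1.39, 0.83, 2.93 and 3.31. For Jun and Dusp2 the control and hypoxia arrays were low and both palmitate arrays high. Egr1, a zinc finger factor, had 3.20, 1.24, 4.55 and 4.93. The rapamycin array was below triple stimuli in 10 of the 21 genes. Klf2, a Krüppel-like factor, had another pattern, with 0.21, −0.44, −0.34 and 1.12, more than 2-fold higher with rapamycin than without. Myc, the growth factor-induced activator of ribosome synthesis, stood at 1.51, 1.57, 3.56 and 3.58. The AP-1 element TGANTCA was found in 0 of 16 windows of the immediate early list, against 5.4% of those of measured genes.

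Neighbouring pathways were less uniform. Among ligands of the EGF receptor, Areg (amphiregulin) had levels of −1.38, −1.92, 1.84 and 0.42, and Hbegf 3.49, 3.15, 4.85 and 4.73; these were the 2 of 10 measured members called higher. Areg was thus 1.79 log2 units above control with rapamycin and 3.21 without, while Hbegf was about equal. Ereg (epiregulin) was well above background with triple stimuli alone (−2.33). Under NF-kB, 5 of 19 genes were called higher and 1 lower, with a median difference of 0.64. The 5 were Il11 (1.94) and Lif (1.29), cytokines of the interleukin-6 family, Ptgs2 (1.69), the inducible cyclooxygenase, Relb (1.28; its other probes 1.29 and 0.14) and Tnfaip3 (1.10), the ubiquitin-editing brake A20. Tnfaip3 lay beside 11.6% raised dim spots. Cxcl1 and Cxcl2, neutrophil chemokines, showed another pattern: Cxcl1 had 1.04, 0.34, 2.47 and 1.31, and Cxcl2 had −2.01, not well above background with hypoxia (−3.24), 0.46 and −1.66. Both were high with triple stimuli alone. Cxcl5, also a neutrophil chemokine, had 2.78, 1.83, 1.48 and 0.63 and was the 1 member called lower.

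Several genes of fatty acid handling that palmitate is known to induce through PPAR were high on both palmitate arrays. Of 18 measured members 5 were called higher and none lower, with a median of 0.48. Without rapamycin 19 members were measured, with 4 called higher and a median of 0.01. Set directly against triple stimuli, the rapamycin array was higher in 10 members and lower in 8, with a median difference of 0.06. Angptl4, the secreted inhibitor of lipoprotein lipase, had levels of 1.29, 0.89, 4.20 and 4.0, a difference of 2.72 (6.58-fold). Pdk4, a pyruvate dehydrogenase kinase, had 0.74, 0.50, 2.82 and 3.06, and Plin2, the lipid droplet coat, 4.87, 5.22, 6.80 and 6.42. In all 3 hypoxia alone stayed near control. Acot2, a mitochondrial thioesterase, had −2.71, −2.52, 0.14 and −0.72, and Acot1, its cytosolic relative, was called higher with rapamycin (1.06) and not without (−0.13), beside 19.1% raised dim spots. Cpt1a, the gate of mitochondrial fatty acid import, was 0.97 above control with and 0.35 without rapamycin. Among enzymes of the oxidation spiral Acadm differed by −0.60, Hadhb by −0.45 and Acadl by 0.39. The list's median turned to −0.08 in the last 2 bands of spots and was 0.05 among bright genes.

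Txnip, a glucose-induced arrestin that lowers glucose uptake, had levels of 0.77, −0.87, 3.33 and 3.68. It was low on the hypoxia array and highest with rapamycin, 7.49-fold above control, and its other probe gave a log2 difference of 3.32. Arrdc4, a relative under the same glucose-sensing factors MondoA and ChREBP, had 0.41, 0.23, 1.47 and 1.28. Txnip was the 1 of 8 measured members of that list called higher. The median was 0.15, below 0 when arrays were scaled by their median.

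Sterol synthesis was lower than control with triple stimuli and lower again with rapamycin. Cells regulate these genes through SREBP2, which binds sterol elements such as TCACNCCAC when sterol is short. The Hmgcs1 window is the 1 of 17 in the list with that exact element, in capitals; it lies on the plus strand at chr13:119690101-119690350 (GRCm38.p6, RefSeq).
Hmgcs1: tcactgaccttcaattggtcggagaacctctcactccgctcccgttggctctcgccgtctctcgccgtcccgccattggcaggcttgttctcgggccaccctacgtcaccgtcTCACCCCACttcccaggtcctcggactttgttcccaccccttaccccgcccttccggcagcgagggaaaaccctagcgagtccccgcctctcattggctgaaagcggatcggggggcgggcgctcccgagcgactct
The element is in 1.2% of all windows, and in 0 of 13 of the fatty acid synthesis list.

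All 25 members of the cholesterol list were measured and all 25 lay below control with rapamycin, where 44.6% of all genes lay above. Of them 8 were called lower and none higher, with a median log2 difference of −0.84, against −0.48 with triple stimuli (3 called) and 0.04 with hypoxia. Idi1, isopentenyl diphosphate isomerase, had levels of 5.36, 4.84, 3.96 and 3.58, beside 22.7% raised dim spots. Hsd17b7, an enzyme of late sterol synthesis, had 1.40, 1.18, 0.52 and 0.08, and Hmgcs1, the synthase of HMG-CoA, 5.98, 5.86, 5.00 and 4.84. Hypoxia lay nearer to control than either palmitate array in each, and the order control, triple stimuli, rapamycin was the same in all 3. In 23 of 25 members the rapamycin array was below triple stimuli, with a median difference of −0.31. The exceptions were Dhcr7 and Stard4, whose other probe gave a rapamycin minus control difference of −0.71 against −0.09. None of these gaps reached 2-fold.

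Fatty acid synthesis showed the same direction in fewer genes. Of 16 measured members 3 were called lower: Elovl6, the elongase of palmitate, at 2.43, 1.61, 1.42 and 0.58, Acaca (acetyl-CoA carboxylase) at 4.92, 4.54, 4.29 and 3.71, and Fasn (fatty acid synthase) at 0.71, 0.23, −0.15 and −0.36. For these 3 the rapamycin array was the lowest. Acacb, the mitochondrial carboxylase, was the 1 member called higher (−2.28, −0.85, −1.81 and −1.10). The median was −0.47 with and −0.21 without rapamycin.

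Ribosome biogenesis genes, classical targets of Myc and mTORC1, were called in neither direction apart from Myc itself, where 3.98% of all measured genes were called. The list's median log2 difference was −0.09 with rapamycin, 0.23 with triple stimuli and −0.37 with hypoxia alone, so the hypoxia array lay below the other arrays. Gnl3 (nucleostemin) had levels of 1.66, 1.37, 2.55 and 2.07, Nop2, an rRNA methyltransferase, 5.42, 5.16, 6.12 and 5.74, and Rrp9, a snoRNP protein, 1.88, 1.19, 2.11 and 1.44. In 24 of 25 members rapamycin was below triple stimuli, with a median difference of −0.37, and none by 2-fold. The exception was Myc. Cytosolic ribosomal proteins, whose mTORC1 control is known to be mainly translational, had a median of −0.01 over 30 measured members, which turned to 0.05 with scaling on probes above background on all 6 arrays and to 0.03 with row bands centred, and all lay between −0.24 and 0.39. There too rapamycin was below triple stimuli in 29 of 30, with a median difference of −0.11. The median of that difference over all genes was −0.04, and 0.02 with scaling on probes above background on all 6 arrays. Gaps this small thus move with the scale, and the count of 29 was not taken under other scales. Polysome loading was not measured.

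**Figure D4:**
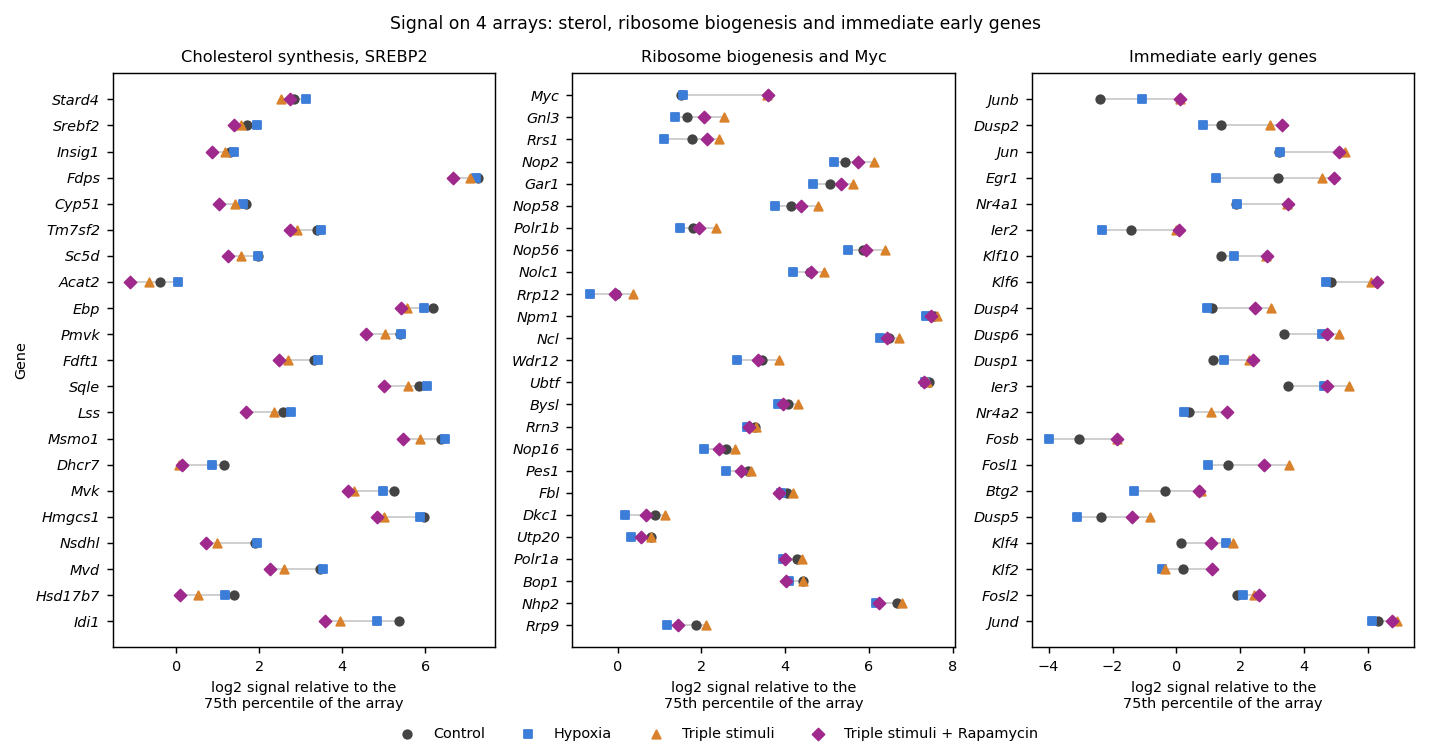
Level of measured members (x axis, log2 signal relative to the 75th percentile of its array) on 4 arrays for cholesterol synthesis (left), ribosome biogenesis (middle) and immediate early genes (right), sorted by the difference between rapamycin and control. The left panel leaves out some members, and each diamond drawn there lies left of its circle; in the middle panel 24 of 25 lie left of the triangles; in the right panel all 21 lie right of the circles.

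Oxidative phosphorylation subunits, each read by its brightest probe, were all below control. The 29 measured members had rapamycin minus control differences between −0.95 and −0.08. Their median was −0.48, against −0.28 with triple stimuli and −0.15 with hypoxia. None was called, where 3.98% of all measured genes were. Atp5g1, a subunit of the ATP synthase ring, had levels of 6.85, 6.52, 6.51 and 5.90, the furthest below control, but its other probe gave a difference of 0.22 against −0.95. Sdhd, of complex II, had 4.41, 4.18, 3.89 and 3.70. Cox4i1, of complex IV, had 7.65, 7.72, 7.70 and 7.57. Rapamycin was below triple stimuli in 28 of 29, with a median difference of −0.13, a small gap that moves with the scale as for ribosomal proteins. Cell cycle genes had a median of −0.18 over 32 members with none called. By brightest probe Ccnd1 (cyclin D1) was the furthest, with 3.53, 2.68, 3.40 and 2.73, while Mki67 stood at 5.69 in control and 5.78 with rapamycin. The other probe for Ccne1 (cyclin E1) gave a rapamycin minus control difference of −1.22, past 2-fold, against −0.60.

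The median of the autophagy and lysosome genes, targets of TFEB, was slightly above control with the 75th percentile as scale. Of 30 measured members 1 was called higher, beside 2.44% of all measured genes. It was Sqstm1, the autophagy receptor p62, at 3.26, 3.22, 4.80 and 4.30. The median was 0.12 with and 0.13 without rapamycin, and −0.04 with median scaling. Several members stood higher with rapamycin than without, none by 2-fold: Map1lc3b (LC3B) at 4.46, 4.53, 4.49 and 4.89, Ulk1, the kinase that starts autophagy, at 4.33, 4.14, 3.90 and 4.32, Wipi1 at 0.52, 1.14, 0.92 and 1.38, and Mcoln1, the lysosomal calcium channel, at 4.33, 4.58, 4.69 and 4.98. Rapamycin was the higher of the pair in 17 of 30. The other probes for Wipi1 gave rapamycin minus control differences of 0.52 and 0.41, against 0.86. Rragd, the Rag GTPase under TFEB control, was well above background on the rapamycin array alone (−1.96), at least 3.23-fold above control. The CACGTG E-box read by this factor family was found in 8 of 23 windows of the list, against 10.0% of those of measured genes. Sqstm1, the 1 called member, lacked it. The same E-box was in 2 of 19 windows of the ribosome biogenesis list and 4 of 8 of the glucose-responsive list.

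Of 26 measured genes for mTORC1 components, regulators and substrates none was called in either direction, where 3.98% of all measured genes were. The list's median was −0.14. Mtor had levels of 0.96, 0.68, 0.62 and 0.16, a difference of −0.79 from control, and its other probe gave −0.04. Eif4ebp1, the translation repressor that mTORC1 phosphorylates, had 5.88, 6.45, 7.15 and 6.68, and Sesn1, a leucine sensor, 1.89, 1.54, 0.89 and 1.18. Irs2, the insulin receptor substrate, had 2.49, 3.12, 2.83 and 3.29. These are transcript levels, and the activity of the kinase was not measured on the arrays.

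The median of the interferon-induced genes was below control with and without rapamycin. Isg15, a ubiquitin-like modifier, is shown because its window holds 3 overlapping interferon elements, each a pair of TTTC runs with 2 bases of any kind between them, here on the other strand and within the capitals. It lies on the minus strand at chr4:156200819-156201068 (GRCm38.p6, RefSeq).
Isg15: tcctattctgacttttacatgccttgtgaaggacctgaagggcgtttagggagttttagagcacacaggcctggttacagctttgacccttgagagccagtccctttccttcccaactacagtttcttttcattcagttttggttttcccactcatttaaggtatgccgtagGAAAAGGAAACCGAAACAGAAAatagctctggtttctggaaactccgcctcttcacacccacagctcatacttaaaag
The element was in 3 of the 4 genes called lower and in 6 of 16 list windows, against 2.8% for measured genes. Isg15 had levels of 1.66, 0.93, 0.67 and 0.35. Ifit3, which restrains viral RNA, had 0.90, 0.70, −1.11 and −0.27, Ifit3b −0.24, −0.34, −2.55 and −1.26, and Xaf1 −0.57, −0.82, −1.66 and −1.58. Both Ifit genes were lowest with triple stimuli and part of the way back with rapamycin, whereas Isg15 was lowest with rapamycin. Of 17 measured members 4 were called lower and none higher, with a median of −0.46 with and −0.65 without rapamycin. Another 12 list genes were not well above background on 1 or both arrays. Among the 4 bright members the median was −0.10.

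In the remaining stress lists single genes stood out. Hmox1 (haem oxygenase) had levels of 4.92, 6.15, 7.35 and 6.38, and the metallothioneins Mt1 and Mt2 had differences of 1.03 and 1.44; these were the 3 of 22 NRF2 and metal genes called higher. The glutathione genes of that list were lower or near control: Gsta2 1.88, 0.54, 1.74 and 0.66, and Gclc 3.76, 3.27, 2.96 and 2.85. Gsta2 was the 1 called lower, and its near-identical relatives may share its signal. The list median was −0.42. Among ER chaperones, Dnajb9 (1.49) and Herpud1 (1.39), of ER-associated degradation, were called higher and Sdf2l1 lower, the latter at 2.26, 1.88, 1.82 and 1.17. Hspa5 (BiP) was at 7.09, 6.76, 7.82 and 7.20, 0.73 above control with triple stimuli and 0.11 with rapamycin. The ER list median of −0.29 was 0.31 in the last 2 bands of spots. Among p53 and death genes Pmaip1 (NOXA) had a difference of 1.75 with and without rapamycin, Gadd45a 1.56, Bbc3 (PUMA) 1.20 and Plk3 1.07, while Ccng1 was lower (−1.07). That list's median, 0.11, was −0.06 with median scaling. No heat shock gene was called higher, and Hspa1a was the 1 called lower (−1.06), beside 11.8% raised dim spots.

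TGF-β and matrix genes went both ways. Thbs1 (thrombospondin 1) had levels of 2.96, 2.66, 1.18 and 1.20, Tgfbi 0.53, 1.25, −0.69 and −0.85, and Id3, a BMP-induced inhibitor of differentiation, 3.86, 3.97, 2.26 and 2.55. These 3 were called lower on both palmitate arrays. Ccn1 was the 1 of 16 called higher (4.13, 4.06, 5.15 and 5.15), and Ccn2 (CTGF) was at 5.06, 4.47, 5.54 and 6.03. Among injury and repair genes Krt19, a keratin of simple epithelia, had 3.69, 5.83, 6.44 and 5.51, while Havcr1 (KIM-1) had 3.32, 3.59, 3.30 and 3.15 beside 10.6% raised dim spots, and Itgb6, an integrin subunit, had a difference of −1.05.

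The label of the cells could be set against markers only in part. Of 20 proximal tubule markers 5 were well above background on the control and rapamycin arrays. Lrp2 (megalin), the endocytic receptor of the segment, had levels of 3.53, 3.74, 2.43 and 2.03, and Aqp1, its water channel, 3.20, 3.09, 2.27 and 1.79. Both were lower on the palmitate arrays. Cubn, the partner of megalin, was at −0.15 and −0.32, Ggt1 at −2.19 and −1.02, and Slc4a4, the bicarbonate exit transporter, at −2.94 and −1.83 in control and with rapamycin. The phosphate, glucose and organic anion transporters Slc34a1, Slc5a2, Slc22a6 and Slc22a8, and the factor Hnf4a, were not well above background on any of the 4 arrays. Several epithelial genes were bright, among them Krt8 (6.16 and 6.07), Krt18 (6.70 and 7.12), Cdh16 (6.84 and 6.30) and Pax8 (3.18 and 3.37). Of 6 measured epithelial markers 1 was called lower with rapamycin and none higher, and triple stimuli alone gave the same counts. Their differences from control with rapamycin lay between −1.13 and 0.42, with a median of −0.05. Cldn2, the leaky tight junction protein of the proximal tubule, was well above background in control alone (−1.60), at least 3.18-fold lower with rapamycin.

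Markers of other cell types were mostly at background. Measured on both arrays were 1 of 10 distal nephron genes (Aqp2), 1 of 6 podocyte genes (Synpo), none of 7 fibroblast genes, 1 of 7 endothelial genes (Kdr, 3.08 and 2.87) and 4 of 8 leukocyte genes. Those 4 were Csf1r (3.77 and 3.40), Itgam (3.01 and 3.13), Cd3e (0.27 and 0.05) and Cd68 (−0.87 and −0.27), while Ptprc, the defining leukocyte antigen, was not well above background. Summed on the linear scale relative to the 75th percentile, leukocyte markers were at 23.6 in control, 34.5 with hypoxia, 25.1 with triple stimuli and 21.3 with rapamycin. Over the same arrays the sums ranged from 7.55 to 10.2 for endothelium, 0.57 to 0.75 for distal nephron, 0.69 to 1.02 for podocytes and 0.28 to 0.52 for fibroblasts. Proximal tubule markers summed to 22.4, 24.4, 12.6 and 9.64. These sums include markers at background and follow the brightest probes, here Lrp2 and Aqp1. Of the 5 proximal tubule markers measured, 2 were called higher with rapamycin (Ggt1 and Slc4a4) and 2 lower (Lrp2 and Aqp1). Their median log2 difference was −0.17. No measured marker of the 5 other cell types was called in either direction with rapamycin. With so few measured, and 3.98% of all measured genes called either way, this says little about those cell types. Fewer cells of a type and less RNA per cell cannot be told apart in such bulk RNA.

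The largest differences outside the first 64 rows included genes of no list. Zfp386, a zinc finger gene, had −0.98, 3.70, 3.49 and 3.73, a log2 difference of 4.71, but its other probes gave 0.33 and 0.10, so the low control value belongs to 1 probe. Pygl, liver glycogen phosphorylase, had −3.45, 0.72, 0.08 and 0.03 (11.2-fold). Lims2, a focal adhesion adaptor, had −1.57, 0.24, 1.74 and 1.60, and Dus4l, a tRNA-modifying enzyme, −0.86, 0.67, 1.80 and 1.53. Pygl was high on all 3 arrays at 1% O2, and Lims2 and Dus4l were higher with palmitate than with hypoxia alone. In the first 64 rows Rnft2 (difference 3.99), Il4ra (3.01) and Sohlh2 (2.91) were high on the rapamycin array alone, beside 35.7%, 11.4% and 18.2% raised dim spots. The largest bounds, Ror1 (at least 28.3-fold), Olfr1303 (at least 20.8-fold) and Akr1c21 (at least 20.3-fold, and also above background with hypoxia at −1.69), lay there too, beside 41.0% to 51.4% raised dim spots.

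Genes lowest against control included several metabolic enzymes, a nuclear receptor and chemokines. Klhl14, an adaptor of ubiquitin ligases, had 0.46, 0.14, not well above background with triple stimuli (−2.70), and −2.55. Hsd3b4, a steroid dehydrogenase, had −0.46, −0.25, −2.72 and −2.97, and Dhrs3, which reduces retinal, 4.96, 4.83, 2.78 and 2.66. Aldh4a1, of proline breakdown, had 3.93, 3.57, 1.94 and 1.71, and Nr1h4 (FXR), the bile acid receptor, 0.72, 0.33, −1.08 and −1.22. For these genes the hypoxia array stayed near control and the palmitate arrays lay together. Sult1c2, a sulfotransferase, went further down with rapamycin (1.12, 1.21, −0.20 and −1.26), as did Pdzk1ip1 (1.57, 1.01, −0.01 and −0.64), the chemokine Ppbp (1.29, 1.42, −0.16 and −0.81) and Flrt1 (−0.06, −0.55, −1.23 and −1.98), whose other probe gave a difference of −2.13. Cyp1a1, the dioxin-induced oxidase, had a difference of −2.37 beside 29.7% raised dim spots, and Akr1c19 one of −2.13. Slc17a1, a phosphate and urate carrier, was at −0.52 in control and not well above background with rapamycin, at least 6.70-fold lower. Cdkl1 (at least 6.86-fold lower) and Atoh8 (at least 4.78-fold lower) were well above background in control and with hypoxia, and on neither palmitate array. In the first 64 rows the lowest were Smad6 (−1.87), Lbp (−1.50), Gcnt1 (−1.50) and Dmpk (−1.41), of which Gcnt1 lay beside 21.7% raised dim spots.

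Among 10595 genes that could be named and were measured on all 4 arrays, 179 were called higher and 104 lower both with and without rapamycin. In comparison, 25 were higher and 10 lower without rapamycin and under 0.5 in size with it, and 16 were higher and 13 lower with rapamycin and under 0.5 without. Among the lowest of those called with and without rapamycin were Slc6a19, the neutral amino acid transporter of the brush border (−1.17, −1.46, −2.98 and −2.99), and Ddit4l, a relative of Ddit4 (0.82, 0.06, −1.02 and −0.93).

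Genes called higher with triple stimuli and near control with rapamycin included Cdsn, an adhesion protein, at 1.04, 1.74, 2.91 and 1.20, and Mfsd2a, a lysophospholipid transporter, at −2.67, −2.35, −1.08 and −2.61. Slc36a1, the lysosomal amino acid transporter that takes part in mTORC1 activation, had −0.96, −1.05, 0.06 and −1.18. Lhx9 (−2.69, −2.54, 0.06 and −2.43), Il12rb1, Lrrc51, Pate14 and Cxcl1 complete the 8 named by size. In each, the triple stimuli array was the highest of the 4, which the choice of genes fixes except against hypoxia. Pate14 was also high with hypoxia (−3.17, −1.46, −1.28 and −2.72). Lhx9, Il12rb1, Lrrc51 and Slc36a1 lie in the first 64 rows, and the surroundings of spots on the triple stimuli array were not scored. In the other direction were Bmf, a death factor of the BCL2 family (−1.22, −1.37, −2.69 and −1.50), Apbb1, Rasl10a, Epha4, Tdrp, Mxd3, an antagonist of Myc (1.00, 0.60, −0.18 and 0.52), Arhgef17 and Fgfr2, all low with triple stimuli alone.

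Genes called higher with rapamycin and near control with triple stimuli included Klhl24, Ptger4, Mms19, Klrg2, Abi1, Numb and Lrch1, and the 8 largest differences lay between 1.26 and 1.56. Klhl24 was also called higher with hypoxia alone (1.15). Of those 8 genes, 6 lay in the first 64 rows and 7 beside at least 10% raised dim spots, against 7.81% of all measured genes and 20.4% of all 388 called higher. Genes called lower with rapamycin and near control with triple stimuli were Gsta2, Anp32a, Aqp5, Ppa1, Lgals9, Them6, Sdf2l1 and Krt80, with differences between −1.22 and −1.07. Gsta2 was also called lower with hypoxia alone (−1.34). Anp32a, a histone chaperone, had 2.83, 2.81, 2.87 and 1.67, and its other probe gave a difference of −0.61; that of Aqp5, a water channel, gave −0.64. Ppa1, the pyrophosphatase, had 5.26, 4.65, 4.82 and 4.11, beside 28.6% raised dim spots. Of these 8, 2 lay beside at least 10% raised dim spots, the share of such genes being 6.94% among all 245 called lower.

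**Figure D5:**
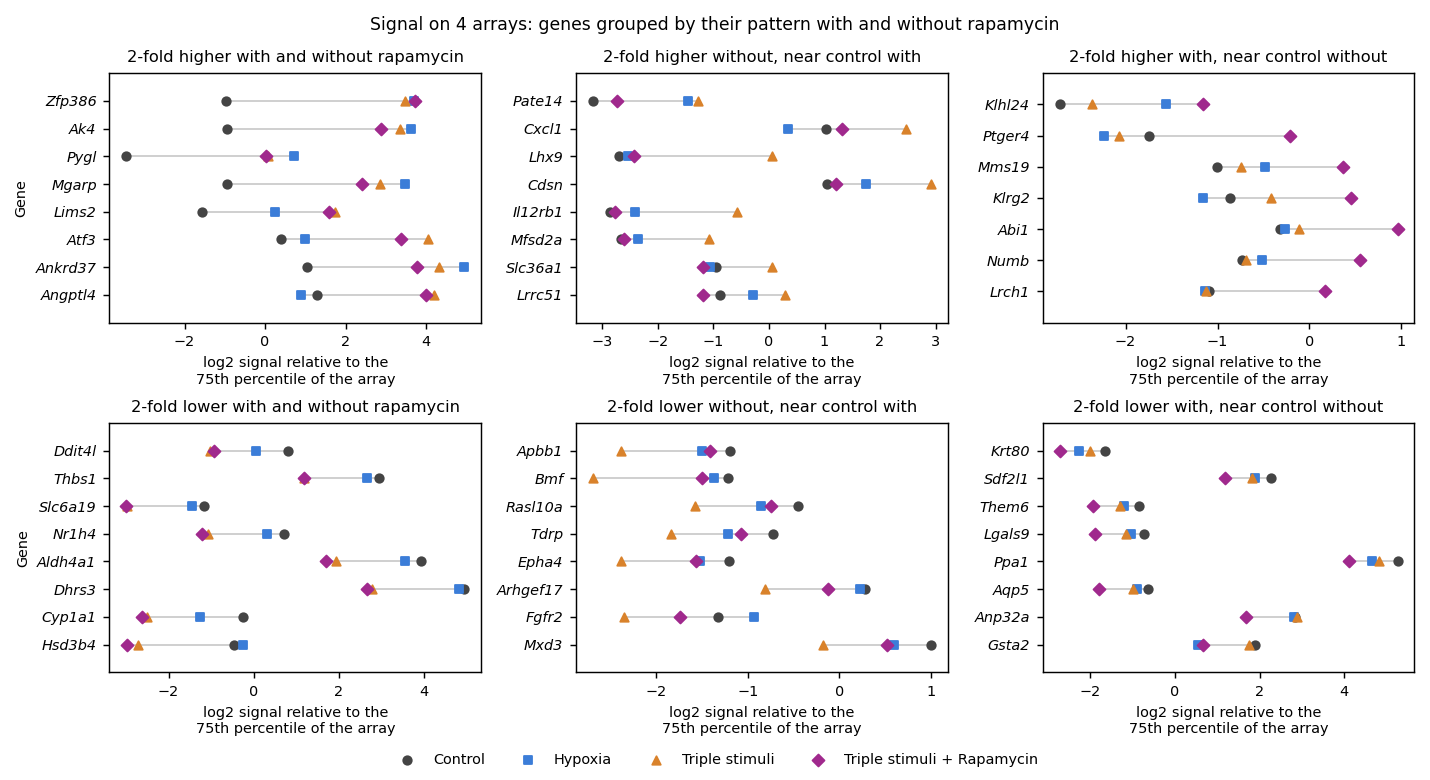
Level (x axis, log2 signal relative to the 75th percentile of its array) on 4 arrays for up to 8 genes per direction, chosen by size in each pattern: called with and without rapamycin (left), called without it and near control with it (middle), called with it and near control without it (right); higher above, lower below. The choice of genes by itself sets the triple stimuli array apart from control and rapamycin in the middle panels. It likewise sets the rapamycin array apart from control and triple stimuli in the right panels.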

How the data were processed

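Per the labels, total RNA was extracted with Trizol and labelled with Cy3 for 1-colour Agilent arrays, and the authors deposited the scanner output of Agilent Feature Extraction 10.7.3.1 (per the submitters' processing notes) as processed signal intensity, already background-subtracted per the file headers, with 1 array per condition. A deposited value table holds, for each probe, what proved to be a ratio: its log2 matched the scanner values up to 1 constant per array, within 3e-07. In that table the columns of high glucose and high fatty acids hold each other's scanner values; those 2 arrays served only to pick the brightest probe per gene and in quantile normalization.

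From the intensities, 59305 non-control spots were taken, 323 probes with an outlier mark were left out, spots of 1 probe were averaged, and log2 signals were set relative to the array's 75th percentile. Each gene is read by its brightest probe (mean over 6 arrays). Of 55681 probes 31399 were matched to RefSeq genes, 27325 by accession; other names are the array's. Probe positions are mm9 per the file headers, and promoter windows are from GRCm38.p6. Exon or UTR positions of probes were not used here. Where 1 array was not well above background, a difference is a bound against the dimmest reliable signal of that array. Named genes were the 12 largest and 12 smallest differences outside the first 64 rows, up to 4 within them, 3 bounds, 4 per list, and 8 per pattern and direction; other genes in the text are list members chosen for their role or after their values were seen. Some genes that this rule names are not reported here. Members and lists were chosen with earlier results of these data known. The pipeline was tested on simulated data. Python 3.11.15, pandas 2.3.3, R 4.3.3 and limma 3.58.1 (normexp) were used, and the results were recomputed under 12 other processing settings, with 2 more added after the data were seen.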

Additional observations from a re-analysis of the deposited data

How the results depend on the processing

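Each condition has 1 array, so nothing here has a biological error, and the number of arrays limits the precision. No paired analysis was possible because no group has more than 1 sample. Leaving out a replicate was not possible for the same reason. The 2 alternatives that use the last 2 row bands, or leave out spots beside raised dim spots, were chosen after the data were seen.

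Counts of called genes moved by more than 1.5 times as follows; the cause was not tested unless the setting removes genes by itself. For triple stimuli with rapamycin against control (388 higher, 245 lower), the counts were 245 and 126 with normexp background correction, 142 and 75 among bright genes, 124 and 36 at 3-fold, and 101 and 81 in the last 2 row bands. Median scaling gave 464 lower, and a signal on at least 1 array gave 811 higher. For triple stimuli against control (482 and 225), they were 284 and 112 with normexp, 206 and 59 among bright genes, 165 and 24 at 3-fold, and 148 and 75 in the last bands, with 353 lower under median scaling and 897 higher with a signal on at least 1 array. For hypoxia against control (393 and 45), they were 780 and 83 with a signal on at least 1 array, 169 and 13 among bright genes, 118 and 6 at 3-fold, and 108 and 17 in the last bands. Lower calls there were 101 with median scaling, 72 with quantile normalization and 17 with normexp. For rapamycin against triple stimuli (58 and 88), they were 21 and 32 with normexp, 335 and 369 with a signal on at least 1 array, 1 and 7 among bright genes, 25 and 47 without the first 64 rows, 17 and 23 at 3-fold, and 6 and 12 in the last bands. Higher calls were 22 without spots beside raised dim spots.

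Of genes higher without rapamycin, those still higher with it numbered 125 of 206 among bright genes, 84 of 155 at 3-fold and 79 of 144 in the last bands, beside 250 of 460, and a lower share, 305 of 897, with a signal on at least 1 array. Of genes lower without it, they numbered 192 of 348 with median scaling, 58 of 112 with normexp, 34 of 59 among bright genes, 15 of 23 at 3-fold and 39 of 75 in the last bands, beside 118 of 220.

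List medians turned sign under median scaling for autophagy (−0.042), glucose-responsive (−0.014) and p53 genes (−0.059), and without spots beside raised dim spots for injury genes (0.007). In the last 2 row bands they turned for ER (0.305), fatty acid oxidation (−0.076), glucose-responsive (−0.084), TGF-β (0.638) and injury genes (0.136), and moved without turning for EGF receptor genes (0.170), glycolysis (0.198) and stress factors (0.971). Among bright genes the median was 0.045 for fatty acid oxidation, −0.099 for interferon and −0.629 for TGF-β genes, and with normexp 0.371 for NF-kB genes. The other 296 list medians under an alternative moved by less than the spread between probes of 1 gene. Among them the ribosomal protein median of −0.008 turned to 0.045 with the percentile over probes above background on all arrays, 0.027 with row bands centred and 0.023 in the last bands. Of 1718 values of named genes under alternatives 6 changed sign, each of a gene under 2-fold: Cdsn, Il12rb1 and Mfsd2a with median scaling, the latter 2 also with quantile normalization, and Khk with the mean over probes. Another 30 fell under 2-fold, 19 of them with normexp, and 4 passed it.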
